A study of Caenorhabditis elegans with 28 samples.

Results

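The microRNA miR-1 of Caenorhabditis elegans was followed through both arms of its hairpin, miR-1-3p and miR-1-5p, which are 2 of the 437 mature miRNA arms in the count table. The arms were chosen by name, and both had reads in all 28 libraries. The libraries came from whole larvae of HW3527, which carries ebax-1(tm2321) IV, and of N2, the wild type, both without further treatment. Larvae were hatched without food to synchronise them, plated on bacteria at 25 °C, and collected as a pool of animals once an hour from 18 to 31 h, with 1 library per strain and hour. The mutant is represented by 1 allele in 1 strain, the labels name no replicate cultures, and strain and culture cannot be told apart.

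miR-1 is a deeply conserved microRNA of muscle, made in C. elegans in body wall and pharyngeal muscle, where it is known to tune the sensitivity of the neuromuscular junction through acetylcholine receptor subunits and the transcription factor MEF-2. Like other microRNAs it is cut from a hairpin precursor as a duplex, of which Argonaute keeps the guide arm (miR-1-3p) and the passenger arm (miR-1-5p) is mostly lost. EBAX-1, the worm counterpart of ZSWIM8, brings substrates to a Cullin-based ubiquitin ligase and promotes the decay of particular microRNAs.

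In the Ensembl annotation of WBcel235, a later build than the ce10 genome to which the authors aligned, the mir-1 gene lies on the minus strand of chromosome I from 6172662 to 6172757, a hairpin of 96 bp. Its annotated mature products run from 6172716 to 6172737 (22 bp) on the 5′ side and from 6172677 to 6172697 (21 bp) on the 3′ side. The hairpin lies in no protein-coding gene, the nearest being T09B4.3 at a distance of 2437 bp. It is overlapped on the opposite strand by the non-coding RNA T09B4.14 (6172671 to 6172796), whose reads would not be counted because only reads of the same strand were used.

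Library totals ran from 4938126 to 13223782 counts, and no pair of libraries held identical counts. The values below are normalised counts, meaning counts divided by the library total and multiplied by the mean total, so each is a share of the counted miRNA reads. The mutant libraries of 28, 29 and 31 h were 3 of the 4 shallowest, with totals of 4970366 to 6125674 counts, and the remaining one was the wild-type library of 29 h. Both arms of mir-35 to mir-42, mir-71 and mir-235, hairpins with an arm that was higher in the mutant, were summed. Together they took 7.54% to 11.8% of counts in the mutant libraries and 2.03% to 6.79% in the wild-type libraries. A larger share for them leaves less for the other arms. The sum is not a full account of raised arms. It holds some that were lower in the mutant, such as miR-71-3p, and leaves out abundant ones that were higher, such as miR-237-5p and miR-44-3p.

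miR-1-3p was among the most abundant arms of the larva, at rank 4 by mean normalised count over all libraries. In mutant libraries it held between 4.16% of counts at 30 h (95% Clopper-Pearson interval 4.15% to 4.18%) and 7.01% at 19 h (6.99% to 7.02%). In wild-type libraries it held between 4.40% at 29 h (4.38% to 4.42%) and 8.58% at 20 h (8.56% to 8.60%). These intervals cover counting error only, and the spread between libraries was far wider than they are. Ranked within each library, miR-1-3p stood between 3 and 8 in the mutant and between 3 and 7 in the wild type.

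Over the 14 hours, normalised counts of miR-1-3p had a low of 347938 (30 h), a median of 472270 and a high of 585479 (19 h) in the mutant. In the wild type the low was 367718 (29 h), the median 613956 and the high 716990 (20 h). The mutant values were the lowest at 28 to 31 h, and these 4 hours were separated from the rest by a gap of 0.29 on the log2 scale. Most neighbours in the order of levels lay close together. With the gap of 0.29 counted, 2 of 13 gaps in the mutant exceeded the residual SD of 0.14 around a trend and a 7 h cosine. In the wild type 1 of 13 exceeded its residual SD of 0.26. That one gap, of 0.42, set the wild-type library of 29 h below all others.

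**Figure D1:**
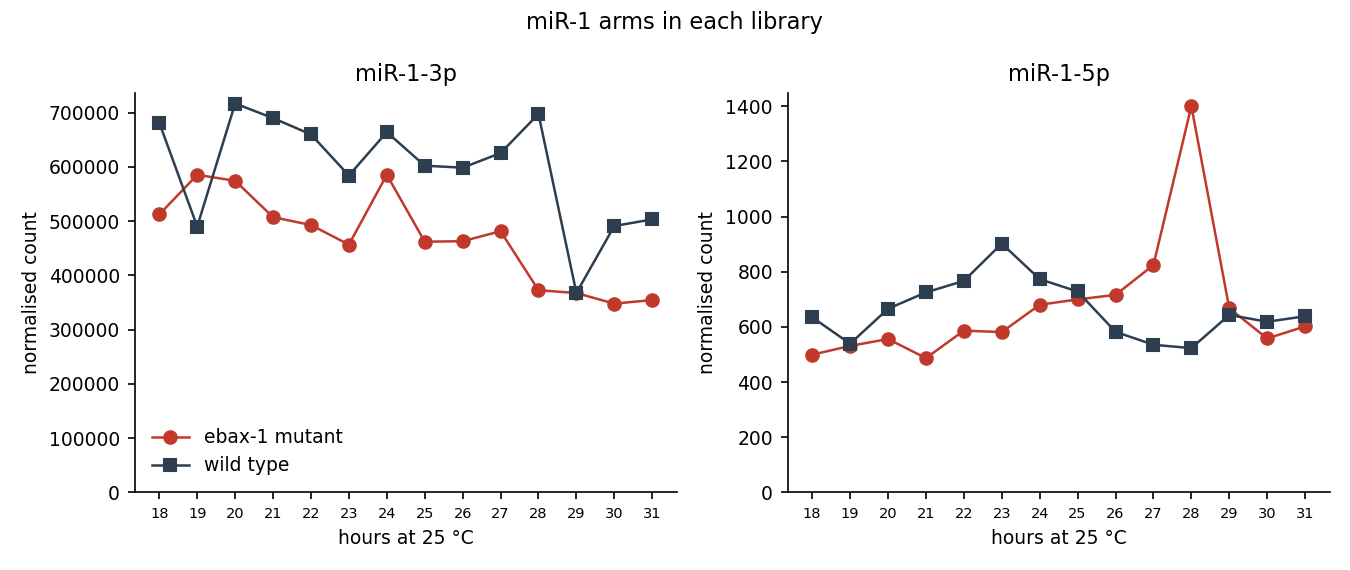
Normalised counts of miR-1-3p (left) and miR-1-5p (right) against hours at 25 °C, 1 point per library, with ebax-1 mutant libraries as circles and wild-type libraries as squares. miR-1-3p lies lower in the mutant at 13 of 14 hours, at 29 h by a margin too small to see, while the miR-1-5p curves cross and the mutant library of 28 h reaches 1400.

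The levels of miR-1 in the mutant and the wild type were compared with the lag of 3 h that the study used for the mutant. Mutant libraries of 21 to 31 h were thus set against wild-type libraries of 18 to 28 h, 11 from each strain. miR-1-3p fell in the mutant by 0.53 ± 0.06 on the log2 scale (SE), to 69.2% of its wild-type level on average over the matched hours. It averaged 444727 ± 75385 normalised counts in the mutant and 637380 ± 65785 in the wild type (SD, n = 11 libraries each). The matched mutant libraries had a low of 347938 (30 h), a median of 462179 and a high of 585465 (24 h), against a low of 490168 (19 h), a median of 659971 and a high of 716990 (20 h) in the matched wild-type libraries. The ranges overlapped, although 8 of the 11 mutant libraries lay below the lowest wild-type library and 9 of the 11 wild-type libraries lay above the highest mutant library. Strains that did not overlap at all, with every mutant library the lower, were found for 3.45% of arms. In whole larvae, fewer muscle cells and less miR-1 per muscle cell cannot be told apart.

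For miR-1-3p, the limma F test over the strain terms had an adjusted p of 0.00372, under the threshold of 0.01, and the test of the mean difference gave 7.65e-05. By the F test, 16.5% of the 406 detected arms were called, 10.8% as lower in the mutant. By the mean difference 30.3% were called, 22.2% as lower, so a lower level in the mutant was a common result among arms. Hour by hour, 12.1% of arms were lower in the mutant at all 11 matched hours. The share lower at 10 or more was not counted. miR-1-3p was lower at 10 of the 11. The exception was the mutant library of 22 h, with 492904, against the wild-type library of 19 h with 490168.

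The measured log2 difference was 0.01 at that pair of hours and lay between -0.24 and -0.70 up to the wild-type hour of 26. It was -0.85 and -0.98 in the last matched hours, when mutant libraries had 347938 (30 h) and 354611 (31 h), against 625553 (27 h) and 697699 (28 h) in the wild type. The larger differences of the late hours were not called as a change of the difference with time, with an adjusted p of 0.412 in the limma test of the strain-by-hour terms, by which 0.985% of arms were called. Without any shift, at equal clock hours, miR-1-3p was lower in the mutant at 13 of 14 hours by normalised count. How many other arms reached that number was not counted. At 29 h the strains had 367525 counts in the mutant and 367718 in the wild type, and at 19 h the order was turned round, with 585479 in the mutant and 490168 in the wild type.

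**Figure D2:**
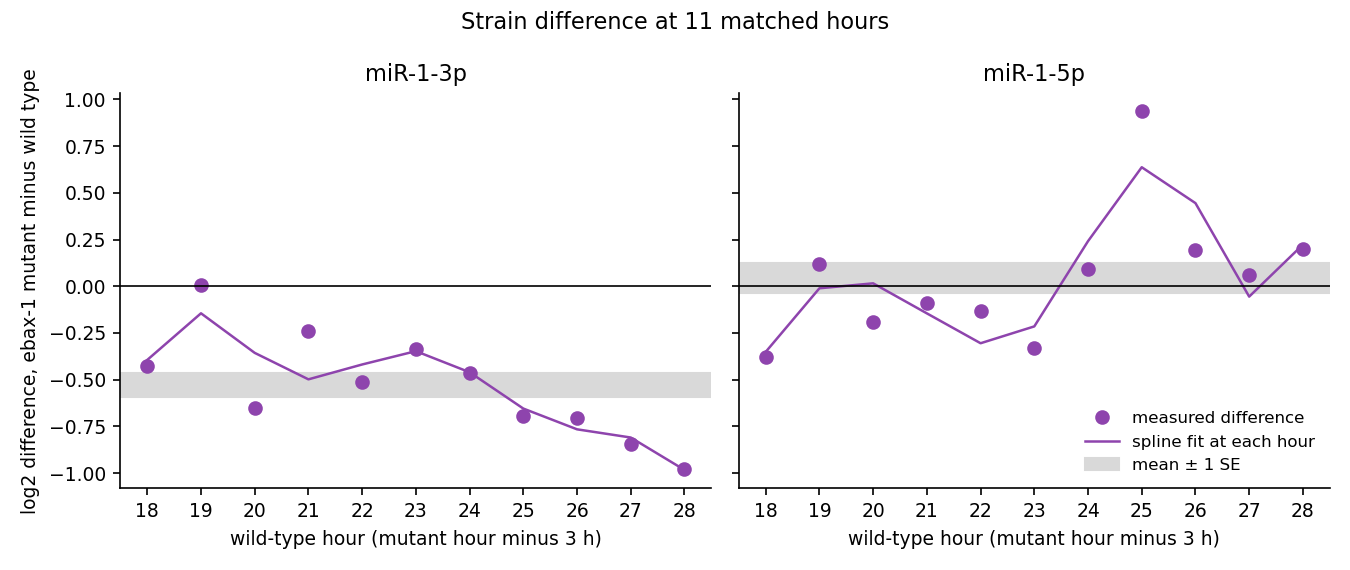
Log2 difference of miR-1-3p (left) and miR-1-5p (right), ebax-1 mutant minus wild type, at each of 11 matched hours, as points, with the spline fit at each hour as a line and the mean difference ± 1 SE as a grey band. Points of miR-1-3p run between 0.01 and -0.98, and those of miR-1-5p lie on both sides of 0 with the highest, 0.94, from the mutant library of 28 h.

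The size of the difference depended on what it was measured against. The 205 arms that averaged 50 or more normalised counts had a median difference of -0.18, so much of the table lay lower in the mutant. With TMM factors in place of the library total this median was -0.02 and that of miR-1-3p was -0.37 (F test adjusted p = 0.0237), and with DESeq2 size factors the values were -0.01 and -0.36 (0.0317). The limma F test call was therefore lost under both. It was kept when the summed arms were left out of the total (-0.45, adjusted p = 0.00882). The strain effect was also called by the quasi-likelihood test of edgeR (-0.37, adjusted p = 0.00557) and the likelihood ratio test of DESeq2 (-0.36, adjusted p = 0.000899). The mean difference stayed under the threshold in every alternative. Relative to the median arm, miR-1-3p lay at -0.35, a distance that is nearly the same under any scaling because a scaling shifts all abundant arms alike.

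The level of miR-1-3p and the depth of the library varied together. Over the 28 libraries its log2 level had a Pearson correlation of 0.73 with log2 library total, and within the strains the values were 0.73 in the mutant and 0.72 in the wild type (n = 14 each, as a description, since libraries of neighbouring hours and the normalisation by the same total are shared). The Spearman values were 0.68 in the mutant and 0.40 in the wild type. The shallowest libraries weighed on these values: without the mutant libraries of 28, 29 and 31 h Pearson r was 0.49 in the mutant, and without the library of 29 h it was 0.42 in the wild type and 0.70 over the remaining 27 libraries. Among 209 arms with a mean of at least 50 over all libraries the median correlation was 0.16, and 1 arm had a higher one than miR-1-3p. The 3 shallowest libraries, the mutant ones of 28 and 29 h and the wild-type one of 29 h, held 372707, 367525 and 367718 normalised counts. Matched mutant libraries had totals of 4970366 to 9733557, against 7561338 to 11683557 in matched wild-type libraries. With log2 library total as a covariate, the mean difference was -0.42 ± 0.09 (limma adjusted p = 0.00923) and the F test gave 0.0964. With the mutant libraries of 28, 29 and 31 h left out, the difference was again -0.42 ± 0.08 (SE) and the F test adjusted p was 0.120.

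**Figure D3:**
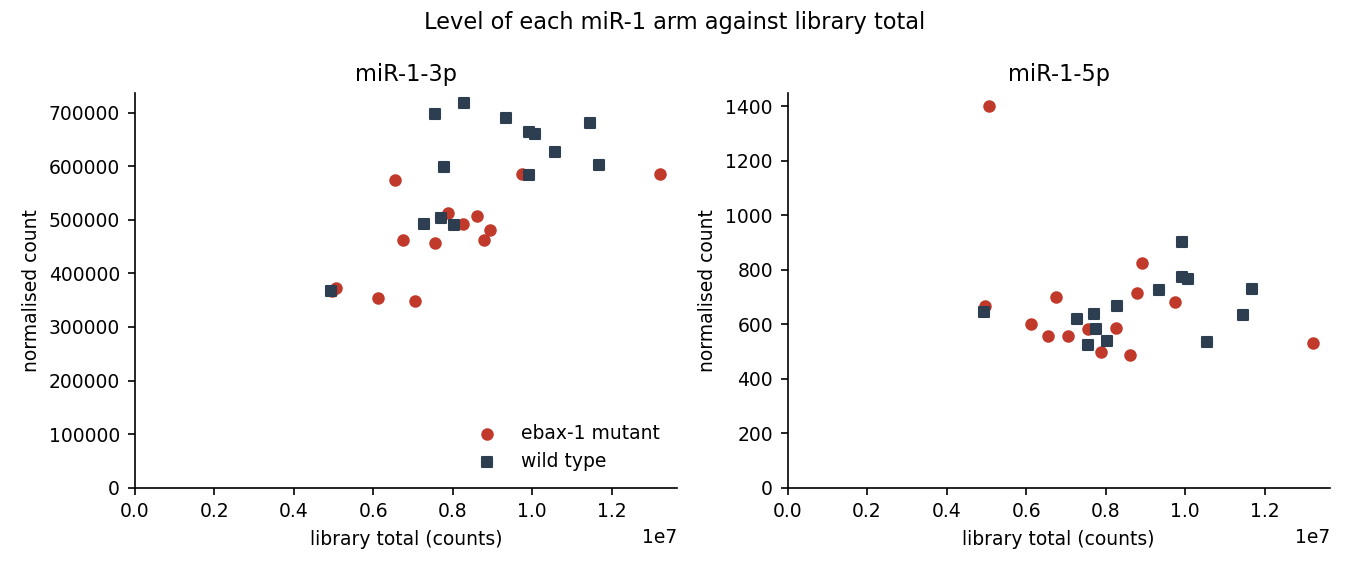
Normalised count of miR-1-3p (left) and miR-1-5p (right) against library total in counts, 1 point per library, with ebax-1 mutant libraries as circles and wild-type libraries as squares. The 3 shallowest libraries, of both strains, lie close together at 367525 to 372707 for miR-1-3p, and the same libraries lie at 643 to 1400 for miR-1-5p.

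The passenger arm miR-1-5p was rare beside its guide, at 380 to 1071 counts per library. In the mutant its normalised counts had a low of 487 (21 h), a median of 594 and a high of 1400 (28 h), and in the wild type a low of 523 (28 h), a median of 641 and a high of 902 (23 h). The mutant library of 28 h stood apart, with 847 reads, or 0.0168% of counts (95% interval 0.0156% to 0.0179%), and the next highest mutant library, at 27 h, had 824 normalised counts. The wild-type libraries had no such value.

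At matched hours miR-1-5p averaged 709 ± 247 in the mutant and 670 ± 121 in the wild type (SD, n = 11 each), and the ranges overlapped widely. It was lower in the mutant at 5 hours and higher at 6. The mean log2 difference was 0.04 ± 0.08 (SE), with a limma adjusted p of 0.744, and the F test gave 0.285, so no strain difference was called. The value was higher under other scalings and not called there either, at 0.20 with TMM factors (adjusted p = 0.129), 0.21 with DESeq2 size factors (0.107), 0.22 in edgeR (0.0960) and 0.23 in DESeq2 (0.0586). Without the mutant library of 28 h the mean difference was -0.05 ± 0.05, on the other side of 0 and again not called (adjusted p = 0.455).

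Because both arms come from one hairpin and are counted in one library, their ratio is free of the scaling by library total, apart from the pseudocount in the log2 values. It still varied with depth. Over the 28 libraries log2 of the ratio had a Pearson correlation of 0.59 with log2 library total, with 0.66 in the mutant and 0.36 in the wild type. There were 266 (28 h) to 1043 (21 h) reads of miR-1-3p per read of miR-1-5p in the matched mutant libraries, with a median of 647. In the matched wild-type libraries there were 648 (23 h) to 1335 (28 h), with a median of 952. The ratio was lower in the mutant at all 11 matched hours, by little at the wild-type hours of 18 (1043 in the mutant and 1074 in the wild type) and 23 (647 in the mutant and 648 in the wild type). It differed by the widest factor at the wild-type hour of 25, with 266 in the mutant and 827 in the wild type, which is again the mutant library of 28 h. How many other hairpins had a lower ratio at all 11 matched hours was not counted, so how common such a result is remains unknown.

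**Figure D4:**
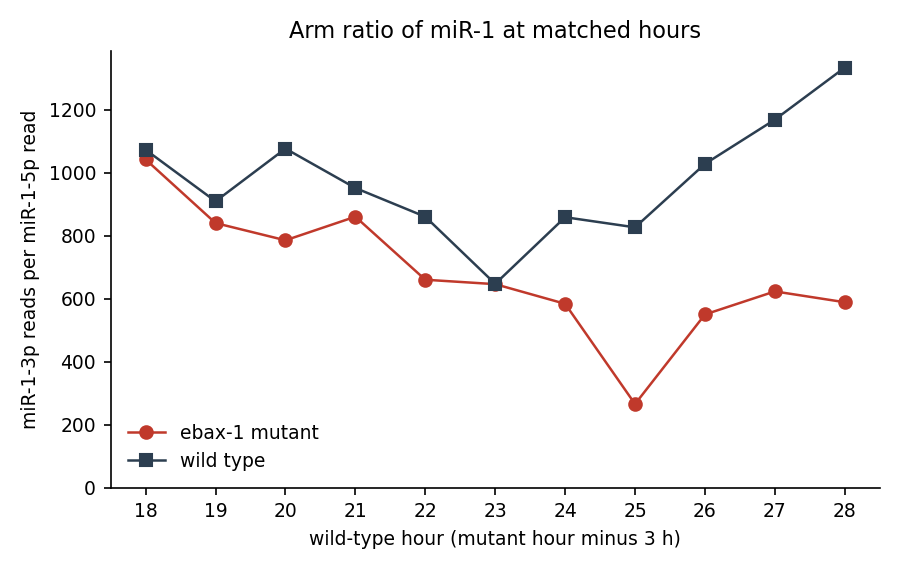
Reads of miR-1-3p per read of miR-1-5p at each matched hour, with ebax-1 mutant libraries as circles and wild-type libraries as squares. The mutant points lie below those of the wild type at 11 of 11 hours, from a near tie of 647 and 648 at hour 23 to 589 in the mutant and 1335 in the wild type at hour 28.

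The log2 ratio was lower in the mutant by a mean difference of -0.57 ± 0.12 (SE; limma adjusted p = 0.000841 over 96 hairpins with both arms at a mean of at least 10). The F test over the strain terms had an adjusted p of 0.0117, just above the threshold. By the mean difference 44.8% of hairpins were called, 20.8% as lower in the mutant, and 16 hairpins had a more negative difference than miR-1, while the median of all was 0.04. The mean difference stayed called when any 1 library was left out. It was not called with log2 library total as a covariate (-0.44 ± 0.19, adjusted p = 0.0834) or without the mutant libraries of 28, 29 and 31 h (-0.31 ± 0.12, adjusted p = 0.0480).

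Across the time course, miR-1-3p fell in the mutant by 0.0485 ± 0.0114 log2 units per hour (SE; limma adjusted p = 0.00657). It averaged 407071 ± 58739 normalised counts at 25 to 31 h and 530702 ± 51145 at 18 to 24 h (SD, n = 7 each). In mutant libraries 18.4% of 391 arms had a called trend, 9.97% a falling one. The trend of miR-1-3p was not called when the mutant libraries of 28, 29 and 31 h were left out (-0.0394, adjusted p = 0.0761), nor with log2 library total as a covariate (-0.0386, adjusted p = 0.0456), nor without any one of 11 of the 14 libraries.

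In the wild type the trend of miR-1-3p was -0.0281 ± 0.0179 per hour (adjusted p = 0.268) and was not called, against 25.3% of arms with a called trend, 16.8% a falling one. It ran from -0.0390 without the library of 19 h to -0.0179 without that of 29 h, was -0.0084 with TMM factors, and was -0.0026 with log2 library total as a covariate. The trends of the strains were not called as different (-0.0204 ± 0.0213 per hour, mutant minus wild type, adjusted p = 0.759), a difference that ran from -0.0306 without wild type 29 h to -0.0095 without wild type 19 h and was not called in any of these fits.

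For miR-1-5p the trend was 0.0575 ± 0.0225 per hour in the mutant (adjusted p = 0.0901) and -0.0302 ± 0.0116 in the wild type (adjusted p = 0.0599), neither under the threshold of 0.01. The slopes differed in sign, and their difference of 0.0877 ± 0.0258 per hour had an adjusted p of 0.0461, which was not called either. By this test 2.71% of arms were called.

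Many larval transcripts and some microRNAs of C. elegans cycle once per moult, so a 7 h cosine was fitted beside the trend. Its amplitude for miR-1-3p was 0.08 log2 units in the mutant (adjusted p = 0.910) and 0.07 in the wild type (0.909). For miR-1-5p it was 0.23 in the mutant (0.725) and 0.25 in the wild type (0.0561), where levels were highest at 23 h. Without 1 library the amplitude of miR-1-5p in the mutant ran from 0.13 (without 28 h) to 0.30, and that of miR-1-3p in the wild type from 0.04 to 0.12. No rhythm of either arm was called, against 2.81% of arms in the mutant and 7.91% in the wild type, and the difference between strains was not called (0.950 for miR-1-3p and 0.947 for miR-1-5p, with 0.493% of arms called). Among 209 arms ordered from the steadiest, the SD of log2 values over the hours put miR-1-3p at place 47 in the mutant (0.26, with a median of 0.37 over arms) and at place 70 in the wild type (0.27, with a median of 0.35). miR-1-5p stood at place 114 in the mutant (0.38) and at place 45 in the wild type (0.23).

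Arms of like abundance had differences closer to 0 than that of miR-1-3p, or positive ones. The 3 arms above it were miR-58a-3p and miR-81-3p, both of the bantam-related mir-58 family, and miR-72-5p. Their differences, mutant minus wild type, were -0.21, -0.17 and -0.02, and none was called by the F test. Of the 5 arms next below, miR-82-3p (-0.11), miR-57-5p (-0.04) and miR-70-3p (-0.34) were not called, the signs of miR-72-5p, miR-81-3p, miR-82-3p and miR-57-5p turning with DESeq2 size factors, while miR-71-5p (0.67, adjusted p = 0.00404), known for its role in lifespan, and miR-44-3p (0.39, adjusted p = 0.00809) rose. By the test of the mean difference miR-70-3p was called as lower too (adjusted p = 0.00309). Each of the other 19 arms among the 20 most abundant had a higher difference than miR-1-3p, an order that scaling the libraries hardly alters. Of the 205 arms averaging 50 or more, however, 45 had a lower one.

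**Figure D5:**
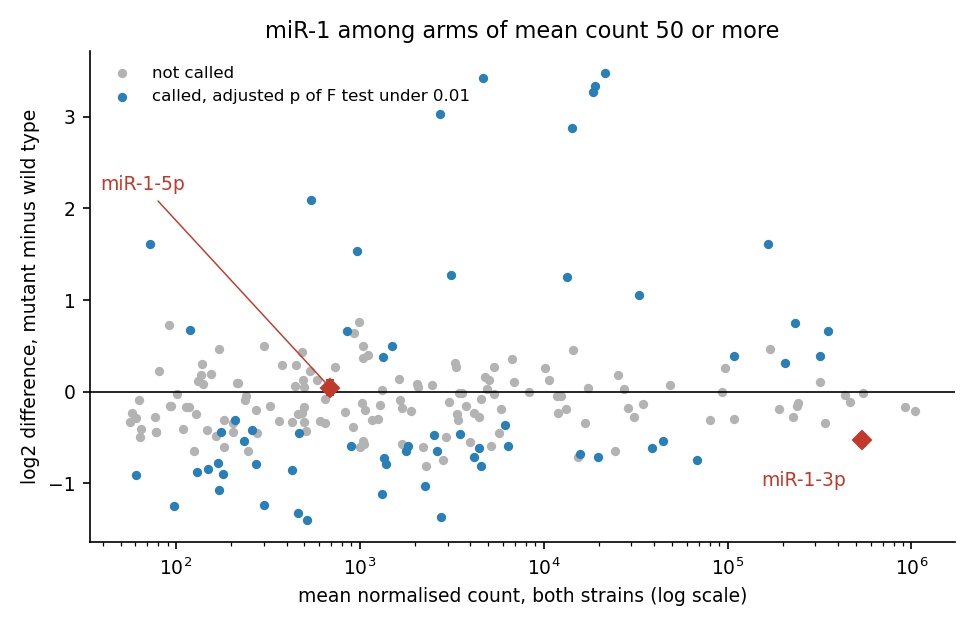
Mean log2 difference, ebax-1 mutant minus wild type, against the mean normalised count of both strains on a log scale, for the 205 arms averaging 50 or more, with arms called by the F test in blue and others in grey. The miR-1 arms are diamonds with bars of 1 SE, miR-1-3p at -0.53 as the lowest of the 20 most abundant arms and miR-1-5p at 0.04 within the grey cloud.

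miR-1-3p was the only arm listed for muscle, so the muscle origin of its reads is taken from what is known of miR-1 and was not tested here. Of the 15 arms listed for other tissues, 6 rose, 3 fell and 6 were not called by the F test. The same test called 16.5% of all 406 detected arms, 10.8% as lower in the mutant. miR-60-3p of the intestine fell by 1.11 ± 0.15 (adjusted p = 0.00500), with 858 in the mutant and 1775 in the wild type, and so did lsy-6-3p, of a single taste neuron, by 0.87 ± 0.10 (0.00294). The third, miR-84-5p, a let-7 relative of the epidermis, fell by 0.75 ± 0.07 (0.00143). It was not called under TMM factors (-0.59, 0.0145) or DESeq2 size factors (-0.58, 0.0151). miR-124-3p (0.05) and miR-791-5p (-0.31) of neurons and miR-228-5p of glia (0.26) were not called, nor were let-7-5p (-0.01, but 0.17 with DESeq2 size factors), miR-48-5p (-0.19) and miR-241-5p (-0.60). By the test of the mean difference, miR-241-5p (adjusted p = 0.000258) and miR-48-5p (0.00167) were called as lower as well, besides the 3 that fell. The 6 that rose were all guide arms of the mir-35 family, miR-35-3p to miR-40-3p, known from embryos and the germ line, with differences of 2.87 to 3.48. The paper proposes that EBAX-1 lowers the stability of this family during larval development. Whether their rise reflects any amount of tissue was not tested.

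Among arms of the microRNA genes nearest to mir-1, those called by the F test differed in direction. mir-235 lies on the same strand of chromosome I from 6162291 to 6162387, at a distance of 10274 bp, and its guide miR-235-3p rose by 1.61 ± 0.13 in the mutant (adjusted p = 0.000179). Its passenger miR-235-5p, at 20.1 normalised counts in the mutant and 16.3 in the wild type, was not called (0.19 ± 0.13, F test adjusted p = 0.498). mir-4816 lies on the other strand from 6185080 to 6185144, at 12322 bp, and both of its arms fell, miR-4816-3p by 0.78 ± 0.08 (0.00178) and miR-4816-5p by 0.90 ± 0.10 (0.00372, and 0.0113 with DESeq2 size factors).

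Compared over all 28 libraries with 208 other arms, the levels of miR-1-3p were most like those of miR-795-3p (Pearson r = 0.89), miR-8196a-3p (0.89), miR-84-5p (0.88), miR-1820-5p (0.85) and miR-787-3p (0.84). The values within each strain ran from 0.80 to 0.89 in the mutant and from 0.75 to 0.91 in the wild type (n = 14 each). miR-1-5p was not among them: its correlation with its own guide was -0.11 and came at place 139. The arms most like miR-1-5p were miR-241-3p (0.63), miR-48-3p (0.55), miR-250-5p (0.54), miR-54-3p (0.53) and miR-83-3p (0.51). All of these correlations are descriptions over libraries that share strains, neighbouring hours and depth.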

How the data were processed

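Deposited whole-number counts of 437 miRNA arms in 28 libraries were used together with log2 values that the authors made from them. In the study's methods, adapters were trimmed, reads were aligned to ce10 by Bowtie inside QuasR, and same-strand reads starting no more than 3 bp from an arm's annotated 5′ end were counted. The deposited log2 values are each library's counts as a share of its total, rescaled to the mean total, with a pseudocount of 8, recomputed here within 0.0005. Tool versions were not given in the sources used here. The protocol names no molecular identifiers. Scaling to the total makes values shares.

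limma 3.58.1 in R 4.3.3 fitted the log2 values of 22 libraries, mutant 21 to 31 h and wild type 18 to 28 h (a lag of 3 h from the study's mRNA), with a cubic B-spline of 6 components, strain and interaction, 14 coefficients and 8 residual degrees of freedom. Both an F test of all strain terms and a test of the mean fitted difference used Benjamini-Hochberg adjustment over 406 arms with a threshold of 0.01. With 1 library per strain and hour, p-values measure the spread of single libraries around smooth curves. Trend and 7 h cosine were fitted per strain over 14 libraries on clock hours. The strain difference of the cosine used mutant hours shifted by the lag. The procedures were also run on simulated counts with independent noise in each library. Changes were placed only in arms less abundant than miR-1-3p, so those runs do not test an arm of its level. Alternatives were other lags, scalings, pseudocounts, count minimums, splines and periods, moderation with trend, a block of matched hour, edgeR 4.0.16, DESeq2 1.42.0, leaving out libraries and, added after seeing the data, library total as a covariate. Named arms were both miR-1 arms, a tissue list, the 5 arms next above (3 existed) and below in abundance, microRNA genes within 50 kb and the 5 most correlated arms with a mean of at least 50. Arms sharing the seed were not looked up. Members and lists were chosen with earlier results of these data known. No sequences are shown.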

Additional observations from a re-analysis of the deposited data

How the results depend on the processing

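The mean difference of miR-1-3p kept its direction and stayed under the threshold in 19 of 19 alternatives (-0.54 to -0.35) and in 22 of 22 fits with 1 library left out (-0.58 to -0.48). The call of miR-1-3p by the test of all strain terms was kept in 11 of 18 alternatives, those of edgeR and DESeq2 included. It was lost with a lag of 0 h (-0.35) or 1 h (-0.38), TMM factors (-0.37), DESeq2 size factors (-0.36), a pseudocount of 1 (-0.53), log2 library total as a covariate (-0.42) and without the mutant libraries of 28, 29 and 31 h (-0.42). It was also lost in 7 of the 22 fits without 1 library (wild type 25, 26, 27 or 28 h, mutant 29, 30 or 31 h), with adjusted p up to 0.0185. The mean difference of miR-1-5p changed sign with a lag of 0 h (-0.0211) and without the mutant libraries of 28, 29 and 31 h (-0.11), and ran from -0.0500 to 0.0846 without 1 library, below 0 without wild type 25 h (-0.0116) or 26 h (-0.0013) or mutant 28 h (-0.0500). The arms called numbered 67, against 133 and 116 with lags of 0 and 1 h, 42 with a pseudocount of 1, 20 with library total as a covariate, 19 without the 3 mutant libraries, and 35 to 79 without 1 library. The arm ratio was not called with a lag of 0 h (-0.33) or 1 h (-0.38), library total as a covariate (-0.44) or without the 3 mutant libraries (-0.31), and ran from -0.63 to -0.46 without 1 library. The trend of miR-1-3p in the mutant was not called with TMM factors (-0.0447), DESeq2 size factors (-0.0396), a pseudocount of 1 (-0.0486), library total as a covariate (-0.0386) or without the 3 libraries (-0.0394), and ran from -0.0587 to -0.0452 without 1 library, called in 3 of 14 fits. The rhythm of miR-1-5p in the wild type was called with a period of 8 h (0.27, adjusted p = 0.00607). The causes were not tested. With matched hour as a replicate block the mean difference of miR-1-3p was -0.53 (adjusted p = 0.000277) and neither its call nor those of the mean difference of miR-1-5p and of the arm ratio changed, the only results it was run for. Matched hours are not replicate numbers. Counts of miR-1-5p, at most 1071 per library, limit its precision more than those of miR-1-3p.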
